A study of Mus musculus with 4 samples.

Results

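The genes described here encode the desmosome, the button-like junction that ties the keratin filaments of neighbouring epithelial cells together, and the plakophilins. They were the 8 genes Dsg2, Dsc2, Dsp, Jup, Pkp1, Pkp2, Pkp3 and Pkp4, covered by 21 of the 34945 probe sets (groups of array probes read out as 1 value) that an annotation table pairs with exactly 1 gene symbol. The set was chosen on measured values of the comparison reported here, namely that Pkp2 was lower and Jup higher at day 8. The values of all 8 genes in this comparison are therefore given as a description. Their place in the fit across all genes is given only as a count, from which nothing is read.

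RNA came from 4 mouse liver tumor samples, 1 per Affymetrix mouse expression array. In the p53 on group (2 samples), mice had received doxycycline for 8 days, which stops the tet-off shp53 hairpin and lets p53 return. In the p53 off group (2 samples), mice had 0 days of doxycycline and the hairpin against p53 was still made. All tumors of both groups were driven by HrasV12, carried that hairpin and grew from LPCs (liver progenitor cells, able to become hepatocytes or bile duct cells) that had been transplanted orthotopically. No samples had doxycycline without the hairpin, so restored p53, the drug and 8 days of time cannot be told apart. For strain, age and the number of LPC lines, nothing was stated in the sources used here. The labels do not say that replicates were separate animals, so errors and p-values measure only how far these samples differ, and that may be technical.

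In a desmosome, the cadherins Dsg2 (desmoglein 2) and Dsc2 (desmocollin 2) reach across to the next cell. Inside the cell their tails are held by 2 kinds of armadillo-repeat protein, plakoglobin (Jup) and the plakophilins, which bind desmoplakin (Dsp), and desmoplakin holds the keratin filaments. Liver epithelium carries desmosomes anchored to the simple-epithelium keratins 8 and 18. Pkp2 is the plakophilin of simple epithelia and of heart muscle, Pkp1 is mainly one of stratified epithelia, and Pkp4 (also p0071) is found at adherens junctions as well.

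Desmosome genes did not share a direction, which the choice of the set on a lower Pkp2 and a higher Jup had fixed. In p53 on tumors Pkp2 was 6.71-fold lower, Pkp4 2.02-fold lower, Dsp 1.63-fold lower and Dsg2 1.49-fold lower than in p53 off tumors, whereas Jup was 1.69-fold higher. Dsc2, Pkp1 and Pkp3 differed by at most 1.14-fold (brightest probe set of each gene). In the fit across all genes, 4 of the 8 genes lay past an adjusted p of 0.05 on the lower side and 1 on the higher side. Of all 18193 genes 28.7% lay past that threshold, 14.7% lower and 14.0% higher. Nothing is read from the members' count, since the contrast chose them. The median difference of the 8 genes was -0.32 on the log2 scale, against 0.02 over all genes. On 14 of the 21 probe sets the groups did not overlap, with 12 lower and 2 higher in p53 on, and 65.3% of all probe sets of 1 gene were free of overlap in the same way.

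Promoter windows are shown for Dsp and Pkp4, which were lower in p53 on, and for Jup, which was higher, and those of Dsg2, Dsc2, Pkp1, Pkp2 and Pkp3 were not analysed here. They are shown so that the start regions of genes that differed in opposite directions can be set side by side. Each window runs from 250 bases before the annotated start to 50 bases after it (RefSeq, GRCm38.p6), 5′ to 3′ on the gene's strand. Dsp lies at chr13:38151044-38151343 (plus strand), Jup at chr11:100397741-100398040 (minus strand) and the windows of the 2 Pkp4 starts at chr2:59160600-59160899 and chr2:59161619-59161918 (plus strand). Capitals mark matches, on either strand, to the E2-box CACCTG, the Grainyhead-like motif AACNNGTT, the AP-1 motif TGANTCA, the TEAD motif GGAATG, the GC box GGGCGG, the cell cycle homology region TTTGAA and the p53 decamer, of which a full p53 response element holds a pair.
Dsp: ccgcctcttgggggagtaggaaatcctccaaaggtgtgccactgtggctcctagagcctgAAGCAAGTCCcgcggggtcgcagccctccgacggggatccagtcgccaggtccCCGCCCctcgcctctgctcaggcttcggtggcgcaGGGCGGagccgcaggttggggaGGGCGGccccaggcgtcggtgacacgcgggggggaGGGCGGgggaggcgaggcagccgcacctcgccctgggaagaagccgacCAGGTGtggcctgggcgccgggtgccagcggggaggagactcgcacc
Jup: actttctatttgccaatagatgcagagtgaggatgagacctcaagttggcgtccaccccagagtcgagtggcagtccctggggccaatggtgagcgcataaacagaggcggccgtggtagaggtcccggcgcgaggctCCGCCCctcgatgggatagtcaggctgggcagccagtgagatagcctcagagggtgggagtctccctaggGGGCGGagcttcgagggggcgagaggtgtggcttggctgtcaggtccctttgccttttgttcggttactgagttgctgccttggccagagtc
Pkp4, upstream start: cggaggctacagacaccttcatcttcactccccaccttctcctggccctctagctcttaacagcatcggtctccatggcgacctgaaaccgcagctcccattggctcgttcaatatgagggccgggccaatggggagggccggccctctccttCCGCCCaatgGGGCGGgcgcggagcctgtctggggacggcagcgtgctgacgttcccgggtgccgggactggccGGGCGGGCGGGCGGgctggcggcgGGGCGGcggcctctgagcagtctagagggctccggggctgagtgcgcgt
Pkp4, downstream start: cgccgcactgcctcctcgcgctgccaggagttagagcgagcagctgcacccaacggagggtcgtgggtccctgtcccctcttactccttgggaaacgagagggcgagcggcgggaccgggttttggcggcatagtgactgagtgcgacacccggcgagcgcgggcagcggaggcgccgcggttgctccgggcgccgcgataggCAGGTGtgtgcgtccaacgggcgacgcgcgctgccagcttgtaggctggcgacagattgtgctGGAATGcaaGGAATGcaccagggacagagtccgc

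GC boxes made up most of the matches in the Dsp, Jup and upstream Pkp4 windows, and the downstream Pkp4 window had no GC box. The Dsp window had 4 GC boxes, an E2-box at base 254 and a p53 decamer at base 61, counted from the 5′ end of the window. The Jup window held 2 GC boxes and none of the other letters searched. At the upstream Pkp4 start there were 6 GC boxes, partly overlapping, and at the downstream start an E2-box at base 204 and TEAD motifs at bases 267 and 276. Over 32851 promoter windows of the same length, 35.7% held a GC box, 20.2% an E2-box, 14.7% a TEAD motif and 8.36% a p53 decamer. The motifs for Grainyhead-like factors (4.2% of all windows), AP-1 (7.81%) and the cell cycle homology region (17.9%) had no match in the 4 windows. GC content was 73% for Dsp, 60.7% for Jup and 69.3% and 68% for Pkp4, against a median of 52.7%.

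Pkp2, the plakophilin that joins desmosomal cadherins to desmoplakin in simple epithelia, had the difference of greatest size among the 8 genes. Its brightest probe set read 8.85 and 8.52 (log2 RMA value) in p53 on, against 11.32 and 11.55 in p53 off. The means were 8.69 ± 0.23 in p53 on and 11.43 ± 0.16 in p53 off (SD, n = 2 each), a difference of -2.75 ± 0.20 (SE). Both p53 on arrays lay below both p53 off arrays.

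The other 3 probe sets of Pkp2 had the same direction at smaller sizes. One read 7.64 and 7.42 in p53 on, against 9.80 and 10.29 in p53 off (difference -2.51 ± 0.27). Another read 6.04 and 5.97 in p53 on, against 7.60 and 8.48 in p53 off (-2.03 ± 0.44), so its p53 off arrays differed from each other by more than those of any other Pkp2 probe set. The last read 6.18 and 6.31 in p53 on, against 7.10 and 6.98 in p53 off (-0.79 ± 0.087), and lay among the 40% of probe sets with the lowest means. Groups did not overlap on any of the 4. RMA compresses differences near background, and no detection call is part of these values.

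Jup encodes plakoglobin, the armadillo protein shared by desmosomes and adherens junctions. It read 10.09 and 10.06 in p53 on, against 9.37 and 9.27 in p53 off. The means were 10.07 ± 0.023 in p53 on and 9.32 ± 0.071 in p53 off, a difference of 0.76 ± 0.053 and the only one above 0.2 on the higher side among the members. Jup has a single probe set, and its name carries the suffix _s_at, which marks probes that match more than 1 transcript, at times of another gene. Endothelial cells also carry plakoglobin at their junctions, and 8 of 10 endothelial markers rose and 1, Lyve1, fell in the same p53 on samples (median difference 0.68). Of these calls 3 of the 8 rises and not that of Lyve1 held under every alternative. The summed linear level of the 10 markers was 8702 and 9954 in p53 on, against 6102 and 6526 in p53 off. Without Emcn, the brightest of them, it was 4844 and 6049 in p53 on, against 4539 and 4012 in p53 off. No marker of any list is at 0, since RMA values never are. The part of endothelial cells in the Jup difference was not tested.

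**Figure D1:**
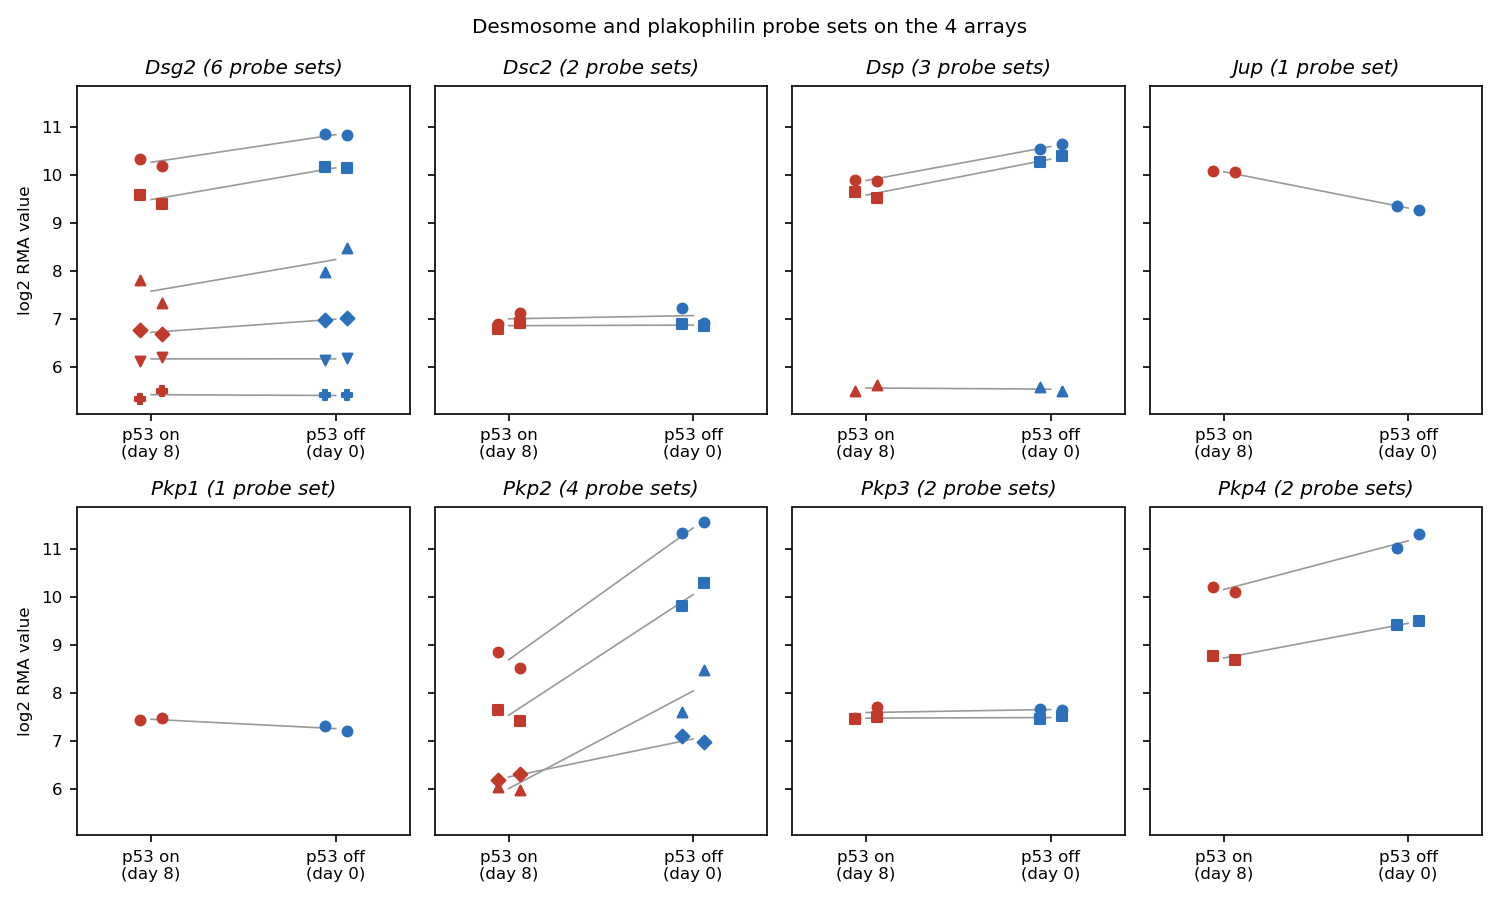
Log2 RMA values (y axis) of every probe set of the 8 genes on the p53 on arrays (day 8, red) and the p53 off arrays (day 0, blue); a marker shape is 1 probe set, each point 1 array and lines join the group means. All 4 Pkp2 probe sets sit lower in p53 on, Jup sits higher at 10.09 and 10.06 against 9.37 and 9.27, and the dim Dsg2 and Dsp probe sets are level.

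Dsp and Dsg2 were lower in p53 on by similar amounts. Dsp encodes desmoplakin, the plaque protein that holds keratin filaments. Its brightest probe set read 9.91 and 9.87 in p53 on, against 10.55 and 10.64 in p53 off (difference -0.71 ± 0.047). A second one read 9.65 and 9.53 in p53 on, against 10.27 and 10.40 in p53 off (-0.75 ± 0.090). The third, among the dimmest 40%, read 5.51 and 5.64 in p53 on, against 5.60 and 5.50 in p53 off, and its groups overlapped.

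Dsg2, the desmoglein of simple epithelia, has 6 probe sets, and the 4 brighter ones were lower in p53 on without overlap. The brightest read 10.35 and 10.19 in p53 on, against 10.86 and 10.83 in p53 off (difference -0.58 ± 0.078). The next read 9.59 and 9.39 in p53 on, against 10.16 and 10.15 in p53 off (-0.66 ± 0.098). The third read 7.83 and 7.34 in p53 on, against 7.99 and 8.49 in p53 off, with replicates so far apart that the difference of -0.66 had an SE of 0.35. The fourth differed by -0.28 ± 0.045. The 2 dimmest, at 6.18 and 5.43 in p53 on and 6.18 and 5.42 in p53 off, overlapped between groups, and averaged over all 6 probe sets Dsg2 differed by -0.36.

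Pkp4 encodes the most distant plakophilin relative here, a protein of cell contacts in many tissues. Its brighter probe set read 10.21 and 10.09 in p53 on, against 11.01 and 11.31 in p53 off (difference -1.01 ± 0.16). The other read 8.76 and 8.69 in p53 on, against 9.41 and 9.49 in p53 off (-0.72 ± 0.050). On neither did the groups overlap. Of the 4 genes with lower values, Pkp4 and Pkp2 are armadillo proteins like Jup. That Pkp2 and Jup stood on opposite sides of 0 was the reason for choosing the set, so it is no result.

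Dsc2, Pkp1 and Pkp3 stood near 0. Dsc2, the desmocollin of simple epithelia, read 6.90 and 7.12 in p53 on, against 7.23 and 6.92 in p53 off on its brighter probe set (difference -0.07 ± 0.19). On the other it read 6.81 and 6.93 in p53 on, against 6.91 and 6.85 in p53 off (-0.01 ± 0.066). Groups overlapped on both. Counted by the brightest probe set of each gene, Dsc2, Pkp1 and Pkp3 were among the 40% dimmest genes, and RMA compresses differences near background. None of their probe sets was among the 40% of probe sets with the lowest means. A probe set of the partner cadherin Dsg2 at a level similar to Dsc2 differed by -0.28 ± 0.045, less than the brighter ones of Dsg2. The near-level Dsc2 values can therefore not be set against the brightest probe set of Dsg2. A low level did not hide every difference, however. A Pkp2 probe set with means of 6.01 in p53 on and 8.04 in p53 off differed by -2.03 ± 0.44. Whether the differences of Dsc2 and Dsg2 themselves differ was not tested.

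Pkp3, a plakophilin of many epithelia, read 7.47 and 7.71 in p53 on, against 7.67 and 7.64 in p53 off (difference -0.06 ± 0.12), and 7.45 and 7.49 in p53 on, against 7.46 and 7.51 in p53 off, on its other probe set (-0.01 ± 0.030). Pkp1 read 7.43 and 7.47 in p53 on, against 7.31 and 7.20 in p53 off (0.19 ± 0.062). Its groups did not overlap, but the difference was 0.11 after quantile normalization, 0.12 after median centring of the arrays and 0.32 when arrays were scaled to their hybridization spike-ins. The sign of Dsc2 and Pkp3 turned with spike-in scaling, to 0.06 each, and without 1 array: Dsc2 was at 0.04 without p53 on replicate 1 and 0.09 without p53 off replicate 1, and Pkp3 at 0.05 without p53 on replicate 1.

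**Figure D2:**
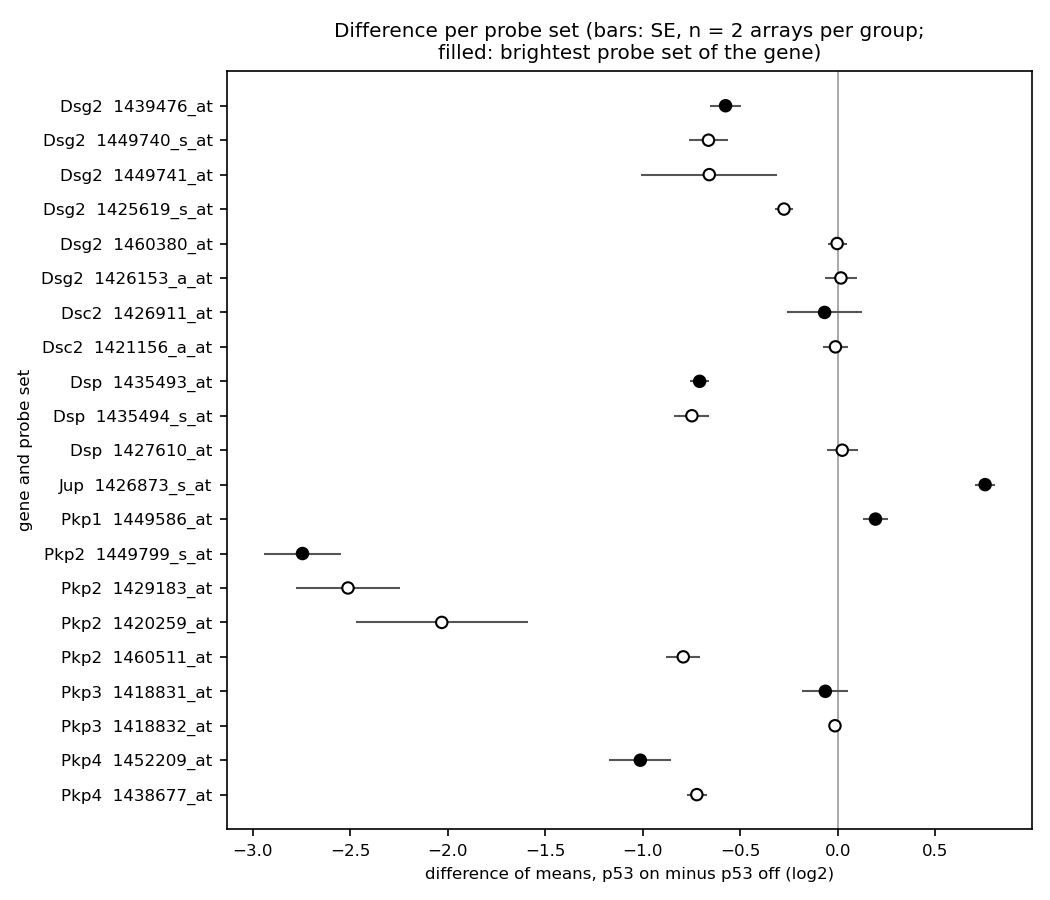
Difference of group means, p53 on minus p53 off on the log2 scale (x axis), for each of the 21 probe sets (y axis), with bars for the SE (n = 2 arrays per group) and filled points for the brightest probe set of a gene. Pkp2 lies farthest to the left, with 3 of its probe sets beyond -2, and Jup farthest to the right at 0.76.

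The directions of Pkp2, Pkp4, Dsp, Dsg2, Jup and Pkp1 were the same under each of the alternatives that gave them a value, which left out an array, changed the scaling or normalization, or changed the probe sets of a gene. Pkp2 ran from -2.91 to -2.02, Pkp4 from -1.16 to -0.86, Dsp from -0.78 to -0.48 and Dsg2 from -0.65 to -0.36. Jup ran from 0.69 to 0.88. With spike-in scaling the median difference of all genes moved by 0.13, and each member moved with it.

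**Figure D3:**
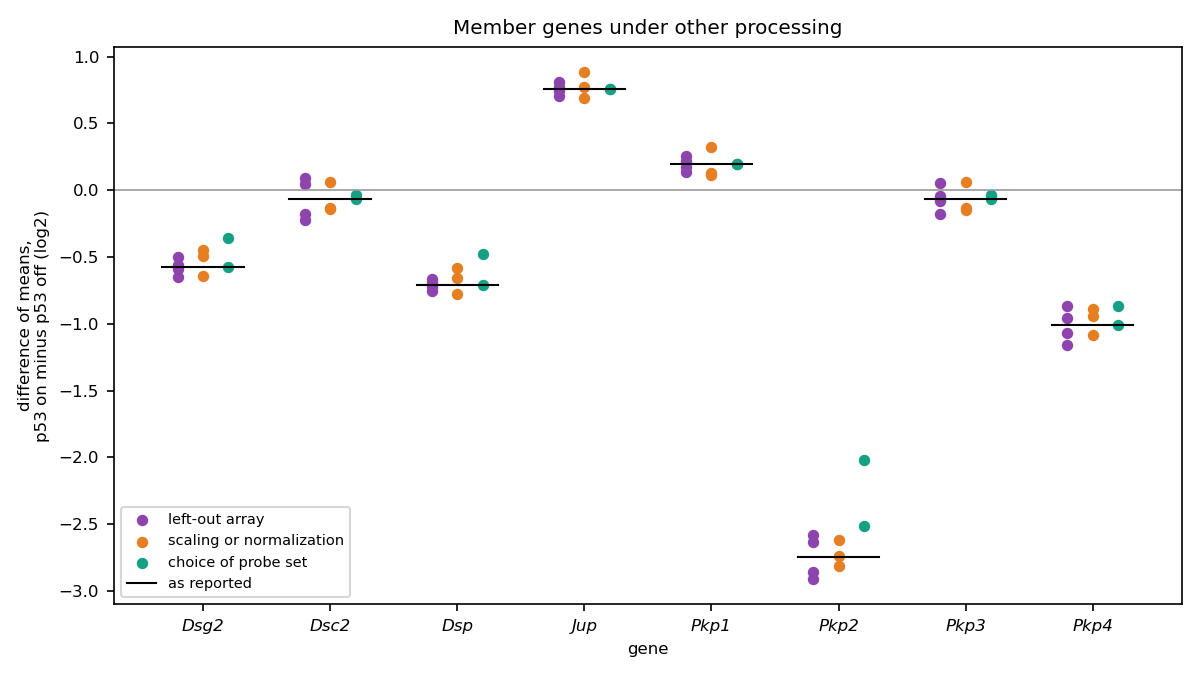
Difference of group means, p53 on minus p53 off on the log2 scale (y axis), for each of the 8 genes (x axis) as reported (black line) and under alternatives that leave out an array, change the scaling or normalization, or change the probe sets. Pkp2 reaches -2.02 at the most, Jup stays at 0.69 or above, and Dsc2 and Pkp3 have points on either side of 0.

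For Pkp2 and for Jup, the genes with the most similar profile over the 4 arrays were found by the root mean square distance between log2 values, each gene minus its own mean. Nearest to Pkp2 were Gpr149, an orphan G protein-coupled receptor gene (distance 0.069), Prss22, a serine protease gene (0.11), and Rbp4, the carrier of retinol in blood (0.12). They differed by -2.66 ± 0.12, -2.59 ± 0.20 and -2.51 ± 0.21. Nearest to Jup were the orphan nuclear receptor gene Nr2f1 (0.018), the potassium channel gene Kcnq3 (0.019) and the homeobox gene Hoxc6 (0.021), at 0.74 ± 0.031, 0.74 ± 0.038 and 0.78 ± 0.066. With 4 arrays in 2 groups, such a distance mostly reflects the size of the group difference.

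Among 72 other genes of the junction, its filaments and its regulators, measured on these arrays, 11 rose and 17 fell in p53 on (limma, adjusted p under 0.05 over all genes). The background was 14.0% higher and 14.7% lower. The share of higher genes among all called was 48.8%, and it was 38.7% after median centring and 69.7% after spike-in scaling. In the 72 genes spike-in scaling gave 16 that rose and 15 that fell, and centring gave 10 and 20. Fewer of the 72 genes were called when either p53 off array was left out. The spread then comes from the p53 on pair alone, whose replicates were farther apart, so fewer calls there need not mean smaller differences.

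Of 10 other measured desmosome components 1 rose, 1 fell and 8 were not called, and the median difference was -0.02. Without p53 off replicate 2 none was called in either direction (0 and 0). When 1 of the p53 on arrays was left out, whichever it was, 2 genes rose. Kazn, which encodes the desmosome-associated kazrin, rose by 0.61 ± 0.12 (limma adjusted p = 0.018), but with the mean of its 3 probe sets it was at 0.28 (adjusted p = 0.105) and without p53 off replicate 2 at 0.49 (0.104), and its adjusted p ran from 0.00871 to 0.105 over the alternatives. Pnn, which encodes pinin, a protein of desmosomes and of the nucleus, fell by 0.67 ± 0.12 (adjusted p = 0.0114), and was at -0.62 without p53 off replicate 2 (0.0825; range 0.00271 to 0.0825). Perp, a p53 target gene whose product sits in desmosomes, read 10.13 and 9.78 in p53 on, against 9.46 and 9.64 in p53 off. It differed by 0.41 ± 0.14 and was not called (adjusted p = 0.083). It passed the threshold without p53 on replicate 2 (0.58, adjusted p = 0.0131) and with spike-in scaling (0.53, 0.0227), and its adjusted p ran from 0.0131 to 0.292. Without p53 on replicate 1 it was at 0.23. The desmosomal cadherins Dsg1a, Dsg1b, Dsc1 and Dsc3 of stratified epithelia differed by -0.08 to 0.08, with limma adjusted p of at least 0.474. Their group means were low, from 4.77 to 6.89, where RMA compresses differences.

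Desmoplakin holds intermediate filaments, and of 15 measured filament and filament linker genes 5 fell, 1 rose and 9 were not called (median -0.15). Krt20 read 9.90 and 9.93 in p53 on, against 11.47 and 11.67 in p53 off, and fell by 1.65 ± 0.092 (limma adjusted p = 0.000511). Krt18 and Krt8, the keratin pair of liver epithelium, changed by -1.61 ± 0.10 and -1.36 ± 0.10, and Krt19, a bile duct keratin, by -1.04 ± 0.15. Plec, the cytolinker plectin, changed by -0.56 ± 0.073. Krt7 and Krt23, also keratin genes of simple epithelia, differed by 0.10 and -0.17 and were not called. The keratin genes Krt5, Krt14, Krt15 and Krt17, typical of stratified epithelia, differed by -0.15 to 0.17 and were not called. Low means, where RMA compresses differences, were those of Krt7 (6.09 in p53 on and 5.99 in p53 off), Krt23 (6.31 and 6.49), Krt14 (6.76 and 6.65), Krt15 (5.53 and 5.68) and Krt17 (5.85 and 5.69). Des, the muscle and stellate cell filament gene desmin, rose by 0.39 ± 0.076 (adjusted p = 0.0164). Its call was lost without p53 off replicate 1 (0.35, adjusted p = 0.0976) and without p53 off replicate 2 (0.42, 0.0805; range 0.00544 to 0.0976).

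In the adherens junction, which Jup and Pkp4 also enter, 7 of 18 measured genes fell and 2 rose (median -0.03). Without p53 off replicate 2 there were 4 that fell and 0 that rose, and without p53 off replicate 1 there was 1 that rose. The classical cadherins of epithelium and mesenchyme both fell, Cdh1 (E-cadherin) by 1.20 ± 0.13 (limma adjusted p = 0.00253) and Cdh2 (N-cadherin) by 0.92 ± 0.074 (0.00116). Cdh1 read 10.20 and 10.54 in p53 on, against 11.62 and 11.51 in p53 off. The kidney-type cadherin gene Cdh6 changed by -3.21 ± 0.071, Afdn (afadin) by -0.82 ± 0.076 and Nectin3 by -0.64 ± 0.11, and with the mean of all probe sets Afdn was at -0.40 and Nectin3 at -0.29. Nectin3 lost its call without p53 off replicate 2 (-0.58, adjusted p = 0.0721; range 0.00378 to 0.0721). Ctnnb1, which encodes beta-catenin, the close relative of plakoglobin, read 13.83 and 13.78 in p53 on, against 13.85 and 13.92 in p53 off. It differed by -0.09 ± 0.075 and was not called (adjusted p = 0.459), although with the mean of its 3 probe sets it was at -0.31 (0.0472) and with spike-in scaling at 0.04 (0.709). Its adjusted p ran from 0.0472 to 0.835. Cdh5, the endothelial cadherin, rose by 0.71 ± 0.18 (adjusted p = 0.0334). That call was lost without p53 off replicate 1 (0.73, adjusted p = 0.113), without p53 off replicate 2 (0.68, 0.156), averaged over both probe sets (0.36, 0.0722) and with a crossed block (0.0547), and its adjusted p ran from 0.00134 to 0.156. Without p53 on replicate 2 the difference was 0.44. Tjp1, which encodes the junction scaffold ZO-1, rose by 0.46 (range of adjusted p 0.00425 to 0.0882), and Vcl (vinculin) and Ctnna1 (alpha-catenin) changed by -0.37 and -0.27 (0.00766 to 0.0989 and 0.0254 to 0.277).

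Of 10 hemidesmosome and gap junction genes 2 fell and 1 rose (median -0.10). Without p53 off replicate 2 there was 1 that fell and 0 that rose, and without p53 off replicate 1 there was 1 that fell. Median centring gave 4 that fell, and spike-in scaling 2 that rose. Itgb4, the integrin chain of hemidesmosomes, rose by 0.86 ± 0.14 (limma adjusted p = 0.00815), and Dst (dystonin), which links that integrin to keratin, changed by -0.97 ± 0.14 (0.00643). Cd151, a tetraspanin partner of that integrin, changed by -0.48 ± 0.084. Each lost its call without 1 p53 off array: Itgb4 without replicate 2 (0.76, adjusted p = 0.0598; range 0.00217 to 0.0598), Dst without replicate 2 (-0.89, 0.0506; range 0.000721 to 0.0506) and Cd151 without replicate 1 (-0.41, 0.0664; range 0.00452 to 0.0664). Gja1, the connexin gene that Pkp2 is linked to in heart muscle, differed by -0.11 and was not called (adjusted p = 0.425).

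Regulators of epithelial junction genes included 6 that rose and 2 that fell among 19 measured (median 0.08). Without p53 off replicate 2 there were 3 and 1, without p53 off replicate 1 there was 1 that fell, and without p53 on replicate 1 there were 4 that fell. Genes of transcription factors that repress epithelial genes rose: Twist1 by 1.58 ± 0.079 (2.99-fold; limma adjusted p = 0.000479), Zeb2 by 0.90 ± 0.11, Zeb1 by 0.78 ± 0.071 and Snai1 by 0.74 ± 0.16. Twist1 read 10.20 and 10.26 in p53 on, against 8.70 and 8.60 in p53 off. Snai2, of the same group, differed by 0.08 and was not called (adjusted p = 0.61). Snai1 lost its call without p53 off replicate 2 (0.52, adjusted p = 0.0704; range 0.0103 to 0.0704). Fibroblasts express several of these factors, and 9 of 10 fibroblast and stellate cell markers rose and 1, Lrat, fell in the same samples (median 0.65; 5 of the 9 rises held under every alternative, and the Lrat call did not), with a summed linear level of 97942 and 100127 in p53 on, against 51785 and 59855 in p53 off. Their part in these rises was not tested.

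Klf5, a transcription factor gene of epithelia, fell by 1.13 ± 0.078 (limma adjusted p = 0.000814) on a probe set with a mark of several transcripts, and was at -0.51 with the mean of its 3 probe sets and -0.41 on the brightest one without such a mark (0.0307; range 0.000383 to 0.0307). Prkca, a kinase gene whose product loosens desmosomes, rose by 0.49 ± 0.094 (adjusted p = 0.0151), but stood at 0.01 with the mean of its 3 probe sets. Without p53 off replicates 1 and 2 it was at 0.47 (0.082) and 0.50 (0.0865), and its adjusted p ran from 0.00463 to 0.948. Egfr rose by 0.41 (limma adjusted p = 0.0493; range 0.00875 to 0.875), but stood at 0.02 with the mean of its 7 probe sets. The protease gene Adam9 changed by -0.44 (range of adjusted p 0.0104 to 0.122). The Grainyhead-like genes Grhl1, Grhl2 and Grhl3, activators of epithelial junction genes, differed by -0.05 to 0.09 and were not called. Grhl1 (means 5.85 in p53 on and 5.90 in p53 off) and Grhl3 (5.42 and 5.33) read low, where RMA compresses differences.

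**Figure D4:**
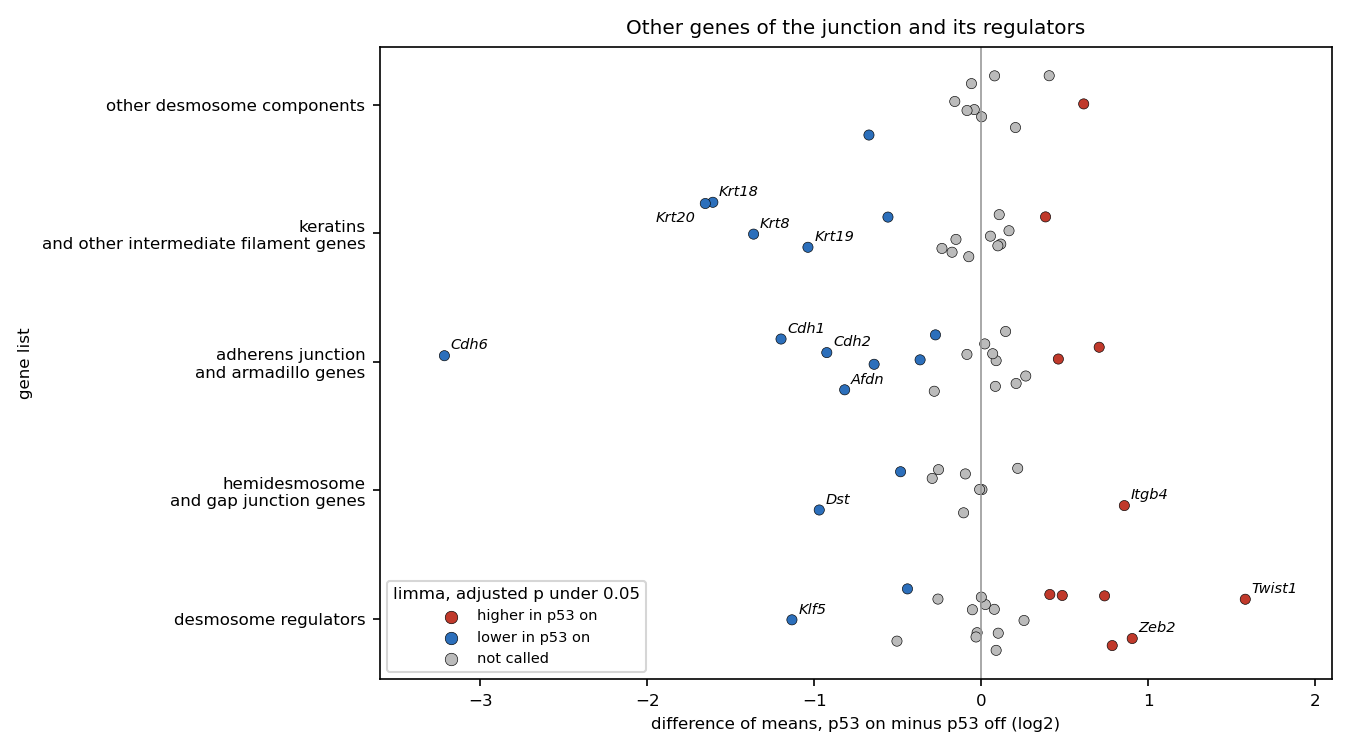
Difference of group means, p53 on minus p53 off on the log2 scale (x axis), for the measured genes of the 5 lists (y axis, scattered within a list for legibility), coloured by the limma call at an adjusted p of 0.05. Krt20, Krt18, Krt8 and Krt19 and the cadherin genes Cdh6, Cdh1 and Cdh2 lie to the left, and Twist1, Zeb2 and Itgb4 lie to the right.

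In bulk tumor RNA, fewer cells of a type and less RNA per cell cannot be told apart, and markers of several cell types moved beside the desmosome genes. Of 6 measured bile duct and progenitor markers 3 fell and 1 rose: Cd24a changed by -1.53, Krt19 by -1.04 and Sox9 by -0.81, whereas Epcam rose by 0.52. The 3 falls were called under every alternative, but Epcam was at 0.34 averaged over its probe sets and its limma adjusted p reached 0.0514. Epcam (_x_at) and Cd24a (_a_at) were read on probe sets with a marked suffix. The summed level of the 6 markers was 7370 and 7877 in p53 on, against 15694 and 17258 in p53 off. Without Cd24a, the brightest of them, it was 4331 and 4140 in p53 on, against 5969 and 7397 in p53 off. Of 8 hepatocyte markers 1, Hnf4a, fell (-0.58). Alb, the albumin gene that defines hepatocytes, read 7.39 and 6.96 in p53 on, against 7.07 and 7.06 in p53 off. Those values lay below the median gene value of each array (8.26 and 8.30 in p53 on, 8.23 and 8.19 in p53 off). Cyp3a11, Cps1 and Apoa1 also read below the medians, and Tat lay close to them. Ttr read above them, at 8.87 and 8.83 in p53 on, against 8.82 and 8.79 in p53 off. Hnf4a did so too, with means of 9.22 in p53 on and 9.80 in p53 off. The hepatocyte gene Cyp2e1 read 9.71 and 7.39 in p53 on, against 7.27 and 7.24 in p53 off, so p53 on replicate 1 stood apart on it, and without that array the members kept the directions given above except Dsc2 and Pkp3. Mesothelial cells and heart muscle also carry desmosomes with Pkp2. The mesothelial marker Msln changed by -2.57 and Wt1 by -0.60 while Gpm6a rose by 0.49, for a summed level of 850 and 877 in p53 on, against 1881 and 2337 in p53 off. The falls and the rise were called under every alternative for Msln only, and without Msln the sum was 657 and 602 in p53 on, against 706 and 705 in p53 off. Of 6 heart markers Tnnt2 changed by -2.83 (its call was lost under at least 1 alternative, with a highest limma adjusted p of 0.433) and Actc1 by 0.40, the other 4, among them Myh6 and Ryr2, were not called, and the summed level was 906 and 1143 in p53 on, against 4474 and 5402 in p53 off. That sum rested on Tnnt2: without it the level was 371 and 370.4 in p53 on, against 335 and 339 in p53 off. Macrophage markers rose for 8 of 10 genes (6 of them under every alternative; median 0.83; summed level 42091 and 49584 in p53 on, against 23915 and 26996 in p53 off). Of 7 squamous markers 1, Ivl, fell (-0.51), and of 6 lymphocyte markers 1, Ncr1, rose (0.69), neither under every alternative. Whether such cell types have a part in the desmosome values was not tested. The 3′ minus 5′ difference of the beta-actin controls, a sign of RNA quality, was 0.478 and 0.492 in p53 on, against 0.395 and 0.262 in p53 off. For the Gapdh controls it was -0.056 and -0.021 in p53 on, against -0.108 and -0.143 in p53 off.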

How the data were processed

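Total RNA from 4 samples was labelled and hybridized to 1 array each, per the labels' protocols. The authors deposited log2 values for each probe set on each array, made with RMA, which corrects background, normalizes quantiles and summarises probes. RMA and limma 3.14.4 are named in the submitters' processing notes. Build and annotation: not given in the sources used here.

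Of 45101 probe sets (64 of them controls) 34945 had exactly 1 gene symbol, 932 several and 9160 none in a platform annotation table. Gene IDs of 34741 matched RefSeq genes (GRCm38.p6), with 0 symbols updated. A gene was its probe set of highest mean, giving 18193 genes. Limma 3.58.1 (R 4.3.3, statmod 1.5.0; lmFit and eBayes, 5.47 moderated degrees of freedom) compared p53 on with p53 off without a block, with Benjamini-Hochberg adjustment over all genes and a threshold of 0.05. Members have plain SEs of the 2 against 2 arrays, and other genes limma SEs. An exact permutation test of 2 against 2 arrays cannot go below p = 0.333, so none was used. The number of arrays limits the precision. The fit was tested on simulated data. Members, lists and tests were chosen with earlier results of these data known. Named were all members, up to 6 called genes of largest change per list, 6 fixed genes (Perp, Krt8, Krt18, Cdh1, Cdh2 and Ctnnb1) and the 3 most similar genes to Pkp2 and to Jup. The other list and marker genes in the text were named after their values were seen. Of 5 pathway lists 72 genes were measured, and 9 marker lists were used. The alternatives included a replicate block, a crossed block, eBayes with trend and robust settings and limma's array weights. Others were quantile normalization, median centring, spike-in scaling, leaving out the 40% dimmest genes and leaving out each array. The rest were the mean of all probe sets and the brightest unmarked probe set, with the plain suffix _at, where a gene had one. That set aside the suffixes _a_at, _s_at and _x_at alike. Figures used Python 3.11.15 and matplotlib 3.10.9.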

Additional observations from a re-analysis of the deposited data

How the results depend on the processing

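Directions of the 5 members that differed by over 0.5 held under all 14 alternatives, but not all of these could have turned one. The blocks, eBayes settings, array weights and leaving out dim genes left each of these differences as it was. Median centring and spike-in scaling moved all genes alike, by -0.07 and 0.13, which is less than any of the 5 differences. Jup has a single probe set, so the choice of probe set could not change it. Sizes moved by more than the replicate SD for Dsg2 (quantile -0.50, spike-in -0.45, averaged -0.36), for Dsp (quantile -0.66, centring -0.78, spike-in -0.58, averaged -0.48), for Pkp1 (quantile 0.11, centring 0.12, spike-in 0.32), for Pkp3 (spike-in 0.06), for Pkp2 with its probe sets averaged (-2.02) or its brightest unmarked one used (-2.51), and for Jup with median centring (0.69) and spike-in scaling (0.88). Ctnnb1 changed sign with spike-in scaling (0.0398). With probe sets averaged, 7 pathway genes were called higher, against 11. Leaving out 1 array gave 2228 to 5055 called genes, against 5223, with 3 to 12 pathway genes higher and 11 to 19 lower, against 17 lower. The low ends came without p53 off replicate 2; without replicate 1 of p53 off, 3259 genes were called, 7 pathway genes higher and 13 lower. Both leave the spread to the p53 on pair, whose replicates were farther apart (0.231 as the SD of their log2 difference, and 0.16 for the p53 off pair). With the replicate number as a block (replicate block), 4323 genes, 10 pathway genes higher and 17 lower were called. Same-numbered arrays did not deviate together (r = -0.154 across genes), and the crossed pairing called 3954 genes, 9 higher and 16 lower pathway genes. Dsc2, Pkp1 and Pkp3 were left out with the dim genes and have no value there.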
